A study of Mus musculus with 8 samples.

Results

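The comparison described here is the transcriptional response to interferon-γ (IFNγ) of mouse peritoneal macrophages that lack the common Fc γ chain (FcgKO, labelled Fcg-chain KO). Its members are 4 of the 8 arrays of the series: 2 labelled FcgKO Non stim and 2 labelled FcgKO IFNg stim, named rest 1, rest 2, IFNγ 1 and IFNγ 2 below after their replicate numbers. All animals carry the strain label C57BL/6. Cells came from the peritoneum of naive mice, adhered overnight in medium with 10% fetal bovine serum and 15% L929 supernatant, a source of M-CSF, and non-adherent cells were then discarded. Recombinant IFNγ was added at 10 ng/ml for 6 h, and RNA was hybridised to Illumina MouseRef-8 v2.0 bead arrays. The remaining 4 arrays hold wild-type (WT) macrophages under the same conditions. The labels do not say how many mice were used or whether duplicates came from separate animals or only from separate wells, so every p-value below measures the spread between these arrays, which may be technical.

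IFNγ is the cytokine through which T cells and NK cells activate macrophages. Its receptor signals through the kinases JAK1 and JAK2, and the genes it induces are known for GAS elements in their DNA. One of them is Irf1, which encodes a transcription factor that acts on another kind of element, the ISRE. Activated macrophages are known for making chemokines for T cells, GTPases that attack vacuoles holding microbes, and the machinery that presents antigen. The Fc γ chain, encoded by Fcer1g, is the signalling adaptor of activating receptors for IgG and IgE and of several lectin-like receptors. It carries an ITAM motif that recruits the kinase Syk, and it is needed for surface expression of several of its partner receptors.

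Expression is given as the deposited intensity, which ran from 82.1 to 22479 with a median near 103 on every array. The array median serves below as the lower end of the usable scale, since no value lay below 82.1. From this the intensities were taken as not background-subtracted, in which case fold changes of dim genes are understated. A gene under the median on both arrays of a group is given a bound ("at least N-fold"). Of 25697 probes, 23978 carried a single gene symbol, and these were reduced to 16593 genes. Replicate arrays correlated at 0.996 to 0.998 in all 4 groups. Log2 fold changes are IFNγ minus unstimulated with their standard error, 2 arrays a group, and adjusted p-values come from limma. A gene is said to have risen or fallen only where its adjusted p was below 0.05.

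Fcer1g itself read 95.7 and 95.6 on the unstimulated FcgKO arrays and 107 and 98.5 after IFNγ, at the lower end of the scale. On the WT arrays it read 17567 and 18350.2 at rest and 16987 and 18350.2 with IFNγ, near the top of the scale. The level of the targeted gene thus matched the genotype label of all 8 arrays.

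Macrophage genes read far above the array median in the FcgKO cultures. Lyz2 (lysozyme) read 20754 and 22479 at rest and 21093 and 22479 with IFNγ, Adgre1 (F4/80) read 4580.0 and 4715 at rest and 3794 and 4611 with IFNγ, and neither passed the test. Of the 6 measured macrophage markers only Fcgr1 rose and 0 fell (2 rose without rest 2, and 1 fell without IFNγ 1 or IFNγ 2), and their summed intensity lay between 36889 and 39278 on the 4 arrays. Most of the macrophage sum came from Lyz2, at the top of the scale, so the sum says little of the other markers. B cell markers summed to 3481 and 2406 at rest and 2671 and 2069 with IFNγ (7 genes, none called). Among them Cd79b read 1228 and 806 at rest and 1005 and 739 with IFNγ. T cell markers summed to between 866 and 1032 (8 genes, none called, 3 under the median on all 4 arrays). NK cell markers summed to between 807 and 827 (8 genes, none called, 4 under the median on all 4 arrays, Ncr1 among them). For mast cells and basophils the sums were 1728 and 1943 at rest and 1892 and 2321 with IFNγ, with the proteases Cma1 and Tpsb2 not called and Hdc, which makes histamine, as the only riser of 9. Neutrophil markers summed to 2922 and 3001 at rest and 3747 and 3285 with IFNγ (9 genes, none called, and 1 riser without either WT resting array). The 9 dendritic cell markers, with sums between 923 and 963, included Batf3 as the only riser, a call that was lost when any 1 FcgKO array was left out (highest adjusted p 0.12). All 5 eosinophil and all 10 mesothelial and fibroblast markers were not called, and 4 and 8 of them were under the median on every FcgKO array. In such bulk RNA, a change in the number of cells of a type and a change in RNA per cell cannot be told apart, and the part of these other cells in any result below was not tested.

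After 6 h of IFNγ, 800 of the 16593 genes had risen and 1147 had fallen in FcgKO macrophages, 4.82% and 6.91% of the genes tested and 11.7% together. These shares are the background for the counts of called genes in the lists below. The rises were larger than the falls. Of the genes that rose, 189 (1.14% of all tested) did so at least 2-fold, 57 at least 4-fold, 19 at least 8-fold and 9 at least 16-fold. Of the genes that fell, 42 (0.253%) did so at least 2-fold, 2 at least 4-fold and 0 at least 8-fold. With a stronger background correction (normexp, offset 16) the at least 2-fold counts were 290 and 98. The median log2 fold change was 0.55 among the risers, -0.38 among the fallers and -0.01 over all genes. Without rest 1 the counts were 539 risers and 591 fallers, and without rest 2 they were 575 and 674. With that correction 690 genes rose and 690 fell in all, whereas 41.1% of the called genes had risen on the deposited scale. Without any test, both IFNγ arrays lay above both resting arrays in 19.6% of all genes and below them in 28.4%. Of the 189 genes with at least 2-fold rises 177 were already above the array median on both resting arrays and 8 were under it on both.

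**Figure D1:**
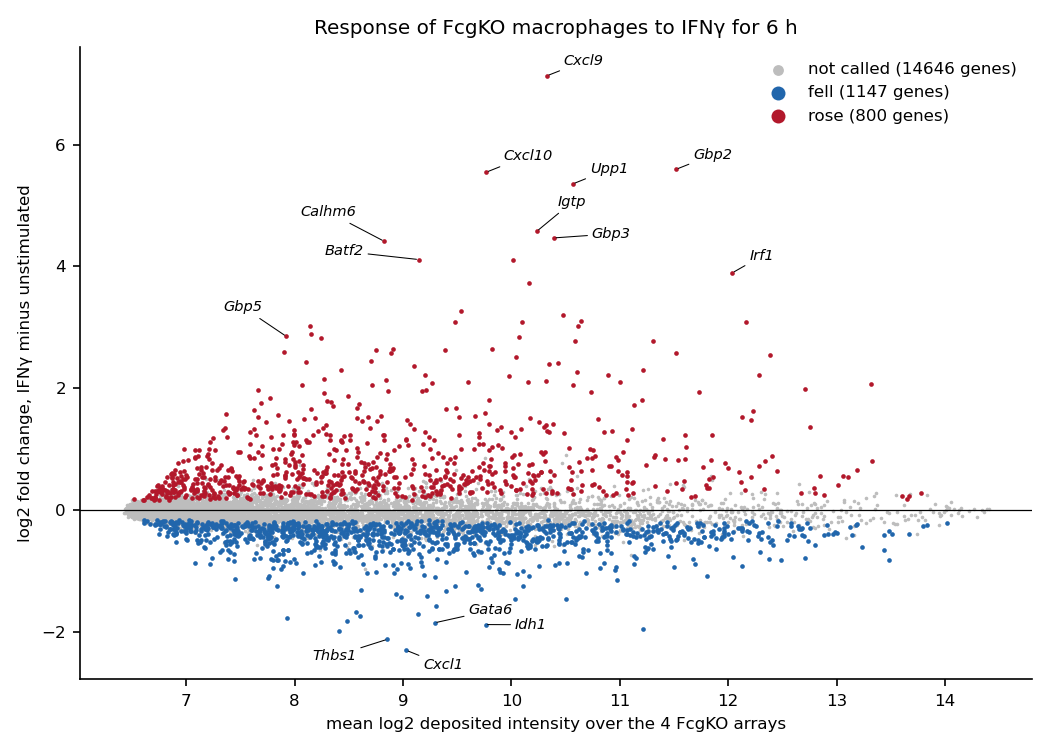
Log2 fold change of each of 16593 genes in FcgKO macrophages (IFNγ minus unstimulated, y axis) against its mean log2 deposited intensity over the 4 FcgKO arrays (x axis). The 800 genes that rose are red, the 1147 that fell are blue and the rest are grey, and the rises reach 7.13 (Cxcl9) while the falls end at -2.31 (Cxcl1).

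The gene with the largest rise was Cxcl9, a chemokine that attracts T cells and NK cells through the receptor CXCR3. It read 103 and 114 at rest and 14586 and 15936 after IFNγ, a log2 change of 7.13 ± 0.06 (adjusted p = 2.41e-09). Both resting values lay close to the array median, the lower end of the usable scale, which limits the size of this change. Cxcl10, a ligand of the same receptor, read 99.2 and 164 at rest and 7668 and 4657 with IFNγ (5.55 ± 0.28, adjusted p = 1.93e-05), with rest 1 under the array median and rest 2 above it. The guanylate-binding protein gene Gbp2 rose from 361 and 495 to 20466 and 20466, close to the top of the scale (5.60 ± 0.13, adjusted p = 2.43e-07). Next in size was Upp1, which encodes uridine phosphorylase of pyrimidine salvage, at 247 and 228 at rest and 9644 and 9812 with IFNγ (5.36 ± 0.13, adjusted p = 3.42e-07). Calhm6, of a family of ion channels, was under the median on both resting arrays and read 2134 and 2055 with IFNγ, at least 20.3-fold higher (adjusted p = 4.42e-09). Batf2, a transcription factor of the AP-1 superfamily, rose from 135 and 137 to 2422 and 2286 (4.11 ± 0.04, adjusted p = 3.44e-09). The IFNγ arrays lay far above both resting arrays in each of these genes, which were picked by the size of that change.

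The largest falls were smaller and began from resting levels above the array median. Cxcl1, a chemokine for neutrophils, dropped from 1221 and 1109.6 to 356 and 155 (-2.31 ± 0.31, adjusted p = 0.00237). Thbs1, the matrix protein thrombospondin, read 743 and 1261 at rest and 207 and 238 with IFNγ (-2.13 ± 0.35, adjusted p = 0.00645). Its resting arrays differed from each other by more than its IFNγ arrays did. Idh1, the cytosolic isocitrate dehydrogenase, fell from 1452 and 1913 to 377 and 542 (-1.88 ± 0.18, adjusted p = 0.000497). Zdhhc14, a protein palmitoyltransferase, went from 399 and 511 to 123 and 142 (-1.77 ± 0.14, adjusted p = 0.000191). Ank, a transporter that exports pyrophosphate, read 1054 and 989 at rest and 311 and 312 after IFNγ (-1.71 ± 0.06, adjusted p = 2.62e-06). Also among the 15 largest falls were the kinase gene Nuak1 (-1.67), the cyclin-dependent kinase inhibitor Cdkn2b (-1.58), Nav1 (-1.47), the Src-like adaptor Sla (-1.46) and Sel1l3 (-1.82). The resting and the IFNγ arrays overlapped in none of these genes. This adds no support, since the genes were picked by their change between the same arrays. Of all genes, 28.4% had both IFNγ arrays below both resting arrays.

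**Figure D2:**
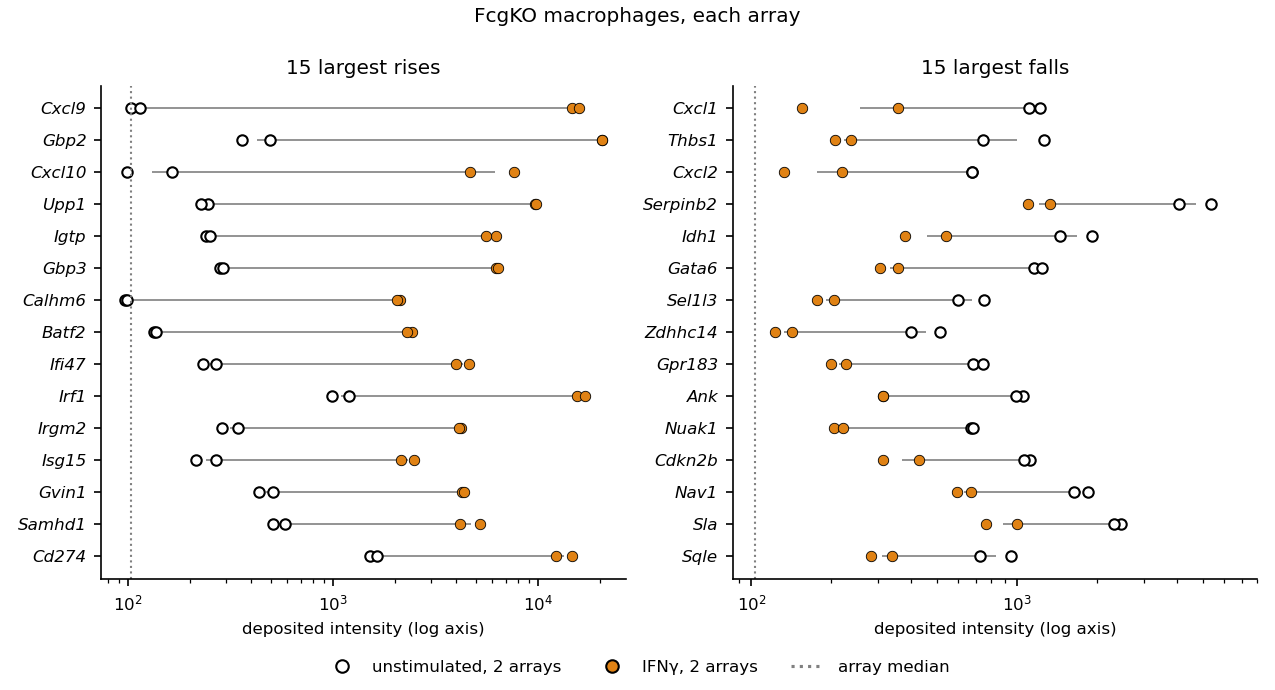
Deposited intensity (log axis) on each FcgKO array for the 15 largest rises (left) and the 15 largest falls (right), unstimulated arrays as open circles, IFNγ arrays as filled circles, grey lines between the geometric group means, and the array median dotted. The genes were picked by their change between these arrays, so the separation of the 2 conditions in all 30 adds no support. Cxcl1 and Cxcl2 show the widest gap between their IFNγ arrays among the falls.

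The DNA upstream of the induced genes was compared with that of all measured genes, since GAS and ISRE elements are known sites of the factors that IFNγ activates. Promoters were the 250 bases before the most upstream start of each gene in RefSeq (GRCm38.p6), held for 13335 of the 16593 genes. The GAS letters searched were TTCNNNGAA, which read the same on both strands. The ISRE core was GAAA, then any 2 bases, then GAAA again, searched on both strands. Sequences of 5 strong risers are shown 5′ to 3′ on the strand of the gene, with matches to either motif in capitals, because they span the range from a GAS match alone to no match at all.
Irf1 (chr11:53769764-53770013, plus strand): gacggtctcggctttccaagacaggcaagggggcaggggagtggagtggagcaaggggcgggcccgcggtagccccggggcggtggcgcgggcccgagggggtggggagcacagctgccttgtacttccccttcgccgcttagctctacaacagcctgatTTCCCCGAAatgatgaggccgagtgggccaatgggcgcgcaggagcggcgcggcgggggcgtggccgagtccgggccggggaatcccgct
Igtp (chr11:58199306-58199555, plus strand): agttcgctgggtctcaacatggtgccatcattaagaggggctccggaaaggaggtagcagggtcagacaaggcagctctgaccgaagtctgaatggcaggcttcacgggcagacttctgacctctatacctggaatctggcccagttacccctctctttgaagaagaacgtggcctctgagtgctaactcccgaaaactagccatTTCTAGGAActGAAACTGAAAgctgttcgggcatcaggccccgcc
Gbp2 (chr3:142620413-142620662, plus strand): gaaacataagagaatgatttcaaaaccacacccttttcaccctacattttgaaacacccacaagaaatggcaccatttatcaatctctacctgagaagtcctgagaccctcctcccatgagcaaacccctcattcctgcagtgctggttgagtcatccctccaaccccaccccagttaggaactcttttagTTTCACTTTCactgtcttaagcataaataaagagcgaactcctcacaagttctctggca
Cxcl10 (chr5:92348890-92349139, minus strand): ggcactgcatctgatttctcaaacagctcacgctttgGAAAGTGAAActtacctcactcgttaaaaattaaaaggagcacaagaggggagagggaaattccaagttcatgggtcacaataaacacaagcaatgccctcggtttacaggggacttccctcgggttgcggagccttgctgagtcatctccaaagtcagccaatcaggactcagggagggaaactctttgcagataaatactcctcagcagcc
Cxcl9 (chr5:92328080-92328329, minus strand): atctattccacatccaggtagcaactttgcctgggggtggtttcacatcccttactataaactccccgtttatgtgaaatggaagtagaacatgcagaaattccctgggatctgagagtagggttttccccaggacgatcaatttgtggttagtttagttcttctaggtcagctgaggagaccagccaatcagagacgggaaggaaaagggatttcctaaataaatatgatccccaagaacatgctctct

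Irf1 held a GAS match at -90 to -82 from the start and no ISRE core. Igtp held a GAS match at -45 to -37 and an ISRE core shortly after it, at -34 to -25. In Gbp2 the ISRE core stood at -59 to -50 on the opposite strand, and in Cxcl10 at -213 to -204. Cxcl9, the gene with the largest rise, held neither set of letters in this window, which says nothing of sites elsewhere or of sites with other letters.

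Over all 13335 promoters, 6.73% held a GAS match and 3.11% an ISRE core. Among genes that rose at least 4-fold the shares were 21.7% (10 of 46) and 32.6% (15 of 46). Rises between 2-fold and 4-fold gave 12.7% (13 of 102) and 6.86% (7 of 102). For rises under 2-fold the shares were 6.68% and 4.45% of 494 promoters. Falls under 2-fold gave 5.05% and 1.54% of 911 promoters, and of the 29 promoters of genes that fell at least 2-fold 1 held a GAS match and 1 an ISRE core. At least one of the motifs stood in 43.5% of the promoters of the strongest class (20 of 46) against 9.34% of all. The 2 searches are not independent, since 67 promoters held both and in 11 of them a GAS and an ISRE match overlapped. Related GTPase genes are also counted as separate promoters. In the strongest class Gbp2, Gbp2b, Gbp3, Gbp5, Gbp7, Igtp, Irgm1, Irgm2 and Tgtp1 all held an ISRE core. Of these, Gbp5, Gbp7, Igtp, Irgm2 and Tgtp1 held a GAS match too. These shares are a description of letters, without a test.

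**Figure D3:**
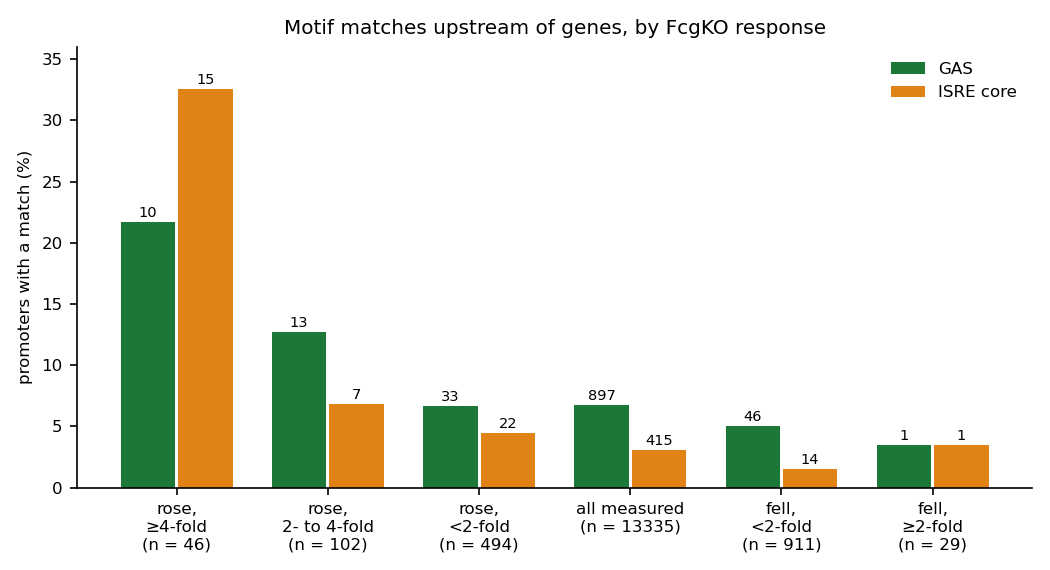
Share of promoters (250 bases upstream, y axis in percent) with a GAS match (green) or an ISRE core match (orange), by the response of the gene in FcgKO, with the number of promoters that matched above each bar. Shares are highest for genes that rose at least 4-fold (21.7% and 32.6%) and lie at 6.73% and 3.11% over all measured genes.

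Within the IFNγ signalling pathway, several transcription factors and feedback inhibitors rose, and the ligand-binding receptor chain fell. Of 14 interferon regulatory factors and STATs 7 rose and 2 fell (median log2 fold change 0.40, against -0.01 over all genes). Irf1 rose from 994 and 1198 to 15547 and 16987 (3.90 ± 0.09, adjusted p = 2.73e-07). Stat2 went from 138 and 160.2 to 412 and 409 (1.46), Irf8, a factor of the macrophage lineage, from 539 and 560.3 to 1262 and 1267 (1.20), and Irf7, which drives type I interferon genes, from 188 and 283 to 471 and 604 (1.21). Stat3 (0.70), Irf9 (0.68) and Irf5 (0.63) rose by less. The fall of Irf3 (-0.36) was not called under the stronger background correction or with all probes of a gene averaged, and the list held 1 faller without rest 1 or without IFNγ 2.

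Among 21 receptor, kinase and inhibitor genes of the pathway 7 rose and 2 fell (median 0.10), 42.9% called against 11.7% of all genes. Socs1 and Socs3 encode inhibitors of JAK kinases. Socs3 rose from 588 and 516 to 5375 and 3745 (3.03 ± 0.16, adjusted p = 2.69e-05). Socs1 was under the median on both resting arrays and read 411 and 394 with IFNγ, at least 3.91-fold higher (adjusted p = 3.08e-07). Usp18, a protease that removes ISG15 and blocks the type I interferon receptor, rose from 278 and 508 to 2710.4 and 3779 (3.09 ± 0.26, adjusted p = 0.000215). Jak2 (0.93) and Cish (0.74) also rose. Ifngr1, the ligand-binding chain of the IFNγ receptor, fell from 418 and 445 to 288 and 289 (-0.58 ± 0.06, adjusted p = 0.000753), while Ifngr2 read 387 and 429.9 at rest and 383 and 347 with IFNγ and was not called. Without rest 2 or without IFNγ 1 the list held 1 faller.

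The interferon-inducible GTPases held many of the largest rises. Of 10 guanylate-binding protein genes, whose products coat and disrupt vacuoles of intracellular microbes, 6 rose at least 2-fold and 4 did not pass the test, all of those 4 under the median on all FcgKO arrays (median 2.10, and 2.01 with dim genes at their bound). Gbp3 rose from 280.0 and 292 to 6266 and 6399.7 (4.47 ± 0.05, adjusted p = 3.44e-09) and Gbp7 from 104 and 106 to 718 and 832 (2.88 ± 0.07, adjusted p = 3.77e-07). Gbp5, which also assists inflammasome activation, read 619.8 and 686 with IFNγ and was at least 6.33-fold higher than at rest (adjusted p = 1.36e-07). Gbp2b read 546 and 1179, at least 7.79-fold higher, with IFNγ 2 more than 2-fold above IFNγ 1. Probes of this family may share sequence, so values of single members are uncertain.

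The immunity-related GTPases act on the same vacuoles. Of 7 measured members 5 rose at least 4-fold and 2 were not called (median 2.60, and 2.52 with dim genes at their bound). Igtp rose from 241 and 252 to 6223 and 5595 (4.58 ± 0.06, adjusted p = 1.43e-08), Ifi47 from 267 and 233 to 3963 and 4631 (4.10 ± 0.08, adjusted p = 1.49e-07) and Irgm2 from 288 and 344 to 4203 and 4138 (3.73 ± 0.08, adjusted p = 1.49e-07). Irgm1, a regulator of the other members, rose from 2286 and 2333 to 10709 and 10802 (2.22). Tgtp1, which has a near-identical copy in the mouse genome, was at least 5.73-fold higher (593 and 587 with IFNγ). The very large GTPase gene Gvin1 rose alongside, from 434 and 508 to 4284 and 4337 (3.20).

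Several of these genes are neighbours. In the order of genes on chromosome 3, the 6 adjacent measured genes Gbp5, Gbp7, Gbp3, Gbp2b, Gbp2 and Kyat3 all rose, by log2 changes from 0.29 to 5.60. On chromosome 11 an unbroken run of 6 risers reached from Irgm1 through Tgtp1 to Ifi47 (0.33 to 4.10). On chromosome 17 the run H2-DMb1, Psmb9, Tap1, Psmb8, Tap2 joined genes of both antigen presentation pathways (1.02 to 2.39).

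Chemokine genes moved in both directions, and those that attract the same cells did not all change. Of 6 chemokines for T and B cells 4 rose (median 1.15). Besides Cxcl9 and Cxcl10 these were Cxcl16, the ligand of CXCR6, from 1923 and 1696 to 4631 and 3513 (1.16 ± 0.12, adjusted p = 0.000658), and Ccl5, at 382 and 321 at rest and 822 and 729 with IFNγ (1.14 ± 0.25, adjusted p = 0.023). The call for Ccl5 was lost whenever any 1 of the 4 FcgKO arrays was left out (highest adjusted p 0.144). Cxcl13, which attracts B cells, read 495 and 809 at rest and 518 and 784 with IFNγ, and its duplicates differed more than its conditions. Cxcl11 was under the median on all 4 arrays.

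All 4 measured ligands of CCR2 and related monocyte receptors rose (median 1.32). Ccl12 went from 712 and 709 to 3016 and 3834 (2.26 ± 0.16, adjusted p = 0.00011), Ccl2 from 758 and 622 to 1673 and 1780.0 (1.33 ± 0.16, adjusted p = 0.0012) and Ccl7 from 2149 and 1925 to 4169 and 5443 (1.23 ± 0.14, adjusted p = 0.00103). Ccl8 read 96.0 and 109.8 at rest, with 1 of the 2 arrays above the median, and 232 and 281 after IFNγ (1.31). In all 4 genes the IFNγ arrays lay above the resting arrays, as they did in 19.6% of all genes.

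Of the neutrophil chemokines, Cxcl1 and Cxcl2 went the other way. Cxcl2 fell with Cxcl1, from 678 and 675 to 219.9 and 133 (-1.99 ± 0.22, adjusted p = 0.000873), and Cxcl3 and Cxcl5 were under the median on all 4 arrays. Of 8 other CC chemokines 0 were called (11.7% of all genes were). Ccl3 read 539 and 584 at rest and 411 and 199 with IFNγ (-0.97 ± 0.27, adjusted p = 0.0635) and Ccl4 1327 and 1572 at rest and 1912 and 968 with IFNγ. In both genes IFNγ 2 stood well below IFNγ 1, as it did for Cxcl1, Cxcl2 and Cxcl10, and without IFNγ 1 the list held 2 fallers and 1 riser, without IFNγ 2 it held 1 faller.

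Genes of successive steps of presentation on MHC class I rose. Of 16 genes 11 rose and 0 fell (median 0.65). Nlrc5, the transactivator of class I genes, went from 178 and 179.7 to 949 and 1008 (2.45 ± 0.06, adjusted p = 3.42e-07). The peptide transporter subunits Tap1 (144 and 150.1 to 684 and 624, 2.15) and Tap2 (904 and 838 to 3370.3 and 3267, 1.93) rose with the peptide editors Tapbpl (2.57) and Tapbp (1.15). Of the heavy chains, the non-classical H2-T23 rose from 2544 and 2941 to 8844 and 8062 (1.63) and H2-Q7 from 527 and 542 to 1373 and 1211 (1.27), and the classical H2-K1 (0.57) and H2-D1 (0.53) rose by less. The heavy chain genes are close relatives, and probes may not tell all of them apart. B2m, the shared light chain, read 17797 and 18070.3 at rest and 18350.2 and 18244 with IFNγ, near the top of the scale, and was not called.

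Of 22 proteasome genes 8 rose and 0 fell (median 0.13), 36.4% called against 11.7% of all genes. The 3 catalytic subunits of the immunoproteasome, which cut proteins into peptides for class I, led the list. Psmb9 rose from 582 and 553 to 2895 and 3065 (2.39 ± 0.10, adjusted p = 5.78e-06), Psmb8 from 397 and 408 to 1299 and 1271 (1.68) and Psmb10 from 2833 and 2833 to 7934 and 7898 (1.48). The activator subunits Psme1 (0.77) and Psme2 (0.63) rose too, as did 2 structural subunits, Psma4 (0.54) and Psma5 (0.53), and the assembly factor Pomp (0.41), the last without a call under the stronger background correction.

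In the MHC class II pathway 4 of 14 genes rose and 0 fell (median 0.21), 28.6% called against 11.7% of all genes. The transactivator Ciita went from 208 and 168 to 410.1 and 473 (1.23 ± 0.16, adjusted p = 0.00205). The peptide-exchange chains H2-DMa (from 1126 and 995 to 2853 and 3122, 2.82-fold) and H2-DMb1 (1.02) rose at least 2-fold. Of the antigen-binding chains, H2-Aa read 1069 and 946 at rest and 1377 and 1348 with IFNγ (0.44 ± 0.07, adjusted p = 0.00645), and H2-Ab1 read 4169 and 3424 at rest and 4884 and 4271 with IFNγ and was not called.

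Of 10 ligands and adhesion molecules that engage T cells 5 rose and 0 fell (median 0.45). Cd274, which encodes the inhibitory ligand PD-L1, rose from 1516 and 1634 to 12264 and 14692 (3.09 ± 0.15, adjusted p = 1.35e-05). Icam1, the ligand of LFA-1, went from 577 and 603 to 4337 and 3756 (2.77 ± 0.08, adjusted p = 9.73e-07), and Cd40, the receptor for CD40 ligand on T cells, from 928 and 843 to 4799.9 and 3488 (2.21 ± 0.13, adjusted p = 4.11e-05). Of the pair of CD28 ligands, Cd86 rose from 1288 and 1243 to 4084 and 4750.5 (1.80), while Cd80 read 214 and 212 at rest and 179 and 181 with IFNγ (-0.24, adjusted p = 0.0569). Without any 1 of the 4 WT arrays, which lend their spread to the test, the list held 1 faller.

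Most antiviral effector genes rose. Of 28 measured 20 rose and 1 fell (median 0.95). Isg15, a ubiquitin-like modifier, rose from 214 and 269 to 2151 and 2481 (3.27 ± 0.13, adjusted p = 4.9e-06), and Samhd1, which hydrolyses deoxynucleotides, from 509 and 583 to 4176 and 5221 (3.10 ± 0.11, adjusted p = 2.81e-06). Ifit3, an RNA-binding effector, went from 167 and 361 to 1948 and 2238 (3.09 ± 0.29, adjusted p = 0.000424), and Rsad2 (viperin) from 248 and 645 to 2761 and 2979 (2.84 ± 0.36, adjusted p = 0.00185). In both, rest 2 was more than 2-fold above rest 1, yet under both IFNγ arrays. Oasl1 (2.63) and Oasl2 (2.52), relatives of the RNA-activated oligoadenylate synthetases, also rose.

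Genes for the attachment or removal of ISG15, ubiquitin or ADP-ribose rose with them. Of 11 such genes, which include the ISG15 protease Usp18, 7 rose and 0 fell (median 1.65). Uba7 and Ube2l6 are the activating and conjugating enzymes for ISG15. Uba7 went from 519 and 585 to 2349 and 2365 (2.10 ± 0.06, adjusted p = 7.07e-07) and Ube2l6 from 151 and 173 to 394 and 407 (1.31). Parp14, an ADP-ribosyltransferase, rose from 559 and 644 to 3138 and 3230.0 (2.41 ± 0.09, adjusted p = 2.81e-06) and Trim21, a cytosolic antibody receptor and ubiquitin ligase, from 197 and 215 to 753 and 979 (2.06). Among 7 Schlafen genes, Slfn1 (240.1 and 314 to 1122 and 1437, 2.21) and Slfn2 (1.14) rose and the other 5 did not pass the test.

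Of 13 sensors of nucleic acids and their adaptors 6 rose and 1 fell (median 0.13), and 3 rose without rest 1 or without IFNγ 2. Dhx58, a regulator of RNA sensing, rose from 255 and 351 to 1166 and 1373 (2.08 ± 0.17, adjusted p = 0.000179). Zbp1, a sensor that starts necroptosis, went from 134 and 134 to 374 and 419 (1.57). Tlr7, an endosomal receptor for RNA, fell from 1187 and 1175 to 645 and 779 (-0.74 ± 0.10, adjusted p = 0.00231).

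**Figure D4:**
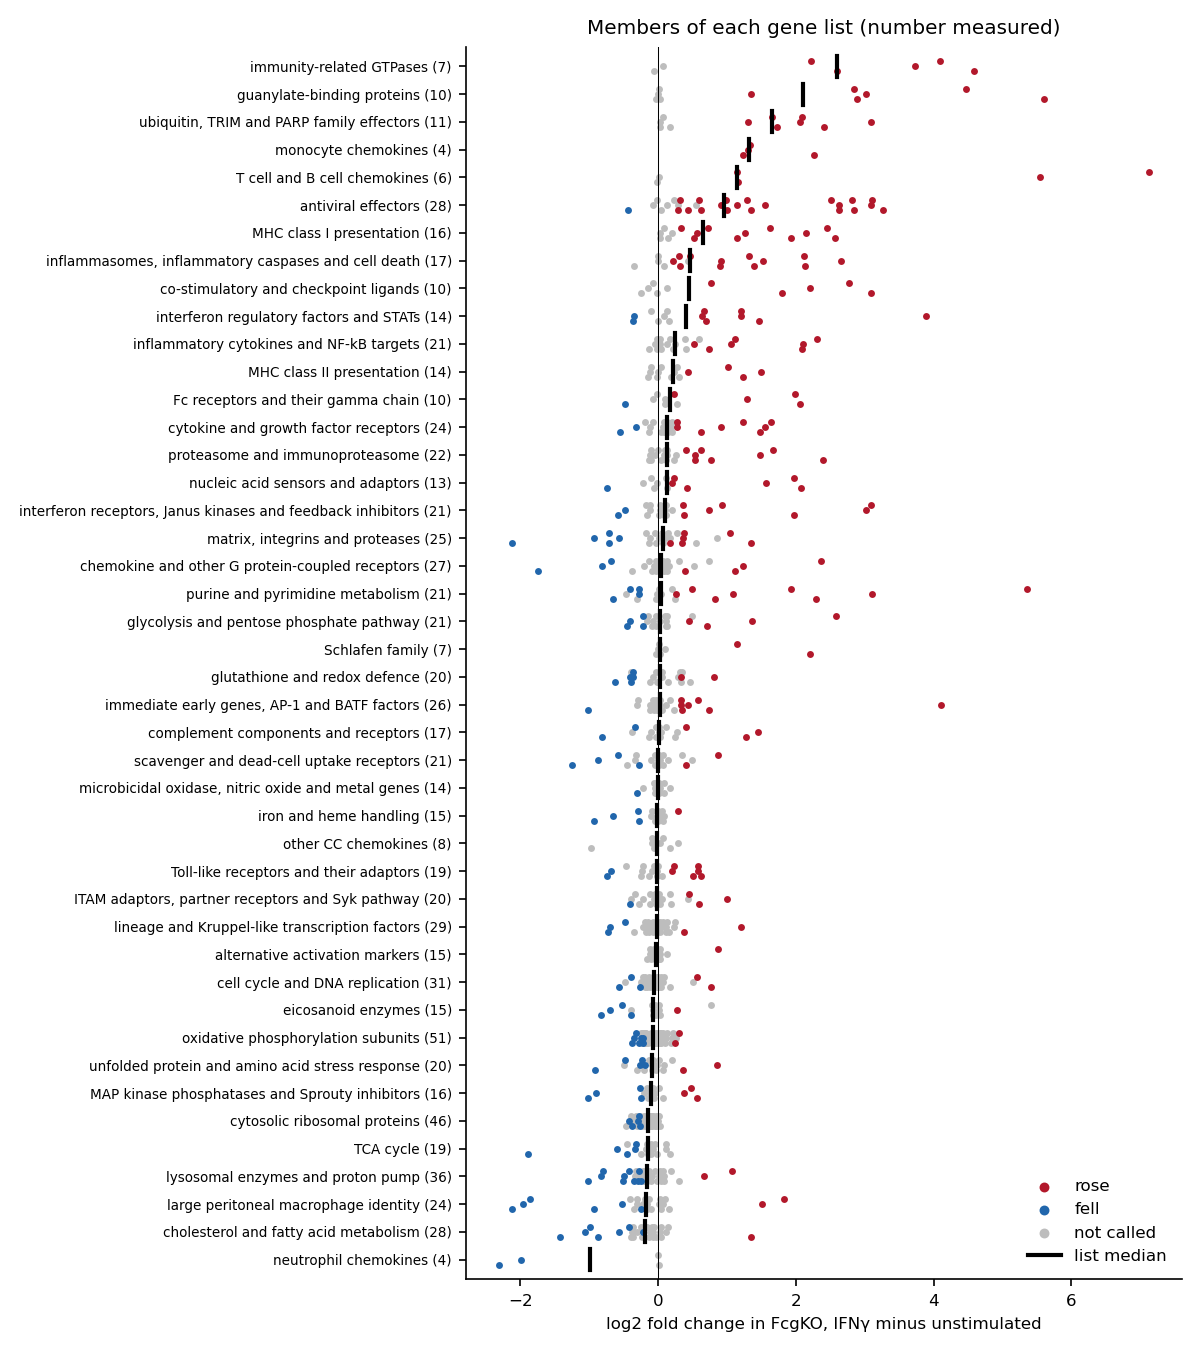
Log2 fold change in FcgKO (x axis) of the measured members of 44 gene lists, one row a list with the number of measured members in parentheses, points red where a gene rose, blue where it fell and grey where it was not called, and a black bar at the median of the list. Lists are ordered by median, from immunity-related GTPases (2.60) to neutrophil chemokines (-0.99), and most metabolic and housekeeping lists centre near the median of all genes, -0.01.

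Inflammatory cytokine genes responded unevenly. Of 21 cytokines and NF-κB targets 7 rose and 0 fell (median 0.25), 33.3% called against 11.7% of all genes. Tnf rose from 369 and 384 to 1869 and 1381 (2.09 ± 0.15, adjusted p = 0.00011) and Il1rn, which encodes the antagonist of the IL-1 receptor, from 1117 and 1019 to 5487 and 5073 (2.31 ± 0.12, adjusted p = 1.88e-05). Il18 went from 353 and 379.7 to 709 and 825 (1.06). Il27, a subunit of the cytokine IL-27, read 104 and 98.9 at rest, with 1 array above the median, and 233 and 207 with IFNγ (1.11). Il1b read 286 and 339.5 at rest, 633 and 207 after IFNγ, and so IFNγ 1 was the highest and IFNγ 2 the lowest of the 4 arrays. Without IFNγ 2 the list held 11 risers, and without IFNγ 1 it held 2 fallers. Il6 was under the median on all 4 arrays.

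Genes for inflammasomes and cell death rose in 12 of 17 cases, with 0 falling (median 0.47), and without IFNγ 1 the list held 1 faller. Casp4, the caspase that senses cytosolic lipopolysaccharide, went from 191 and 193 to 1187 and 1223 (2.65 ± 0.07, adjusted p = 3.42e-07), and Casp1, which matures IL-1β and IL-18, from 2583 and 2696 to 7399 and 7793 (1.52 ± 0.06, adjusted p = 2.81e-06). Gsdmd, the pore-forming target of both caspases, rose from 720.2 and 857 to 1506 and 1468 (0.92). The necroptosis kinase Ripk3 (0.90) and its effector Mlkl (562 and 670.4 to 2572 and 2773, 2.12) rose, as did the death receptor Fas (188 and 199 to 515 and 503, 1.40). Nod1, a sensor of bacterial peptidoglycan, went from 209.9 and 229 to 894 and 1042 (2.14).

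Of 14 oxidase, nitric oxide and metal genes for the killing of microbes 0 rose and 1 fell (median -0.00), 7.14% called, which is near the 11.7% of all genes. Nos2, the inducible nitric oxide synthase, read 100.2 and 104 at rest and 126 and 106 with IFNγ (0.18 ± 0.15, adjusted p = 0.643), with 1 resting array under the array median. Slc11a1, a transporter that withholds metals from phagosomes, read near the top of the scale, 18350.2 and 17797 at rest and 17086 and 17918 with IFNγ. Ncf4, a cytosolic subunit of the phagocyte oxidase, fell from 2485 and 2379 to 1995 and 1939 (-0.31), a call that was not made under the stronger background correction. The count of fallers was 2 without either WT resting array.

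Receptors for microbes and immune complexes changed in both directions. Of 19 Toll-like receptor genes and adaptors 6 rose and 2 fell (median -0.02), 42.1% called against 11.7% of all genes. The number of risers was 2 without rest 1 and 3 without IFNγ 2. Myd88, the common adaptor, rose from 3411 and 3675 to 5523 and 5423 (0.63 ± 0.05, adjusted p = 0.000251) and Tlr6 from 484 and 505 to 708 and 764 (0.57). Tlr13, a receptor for bacterial ribosomal RNA, fell from 1771 and 1869 to 1075 and 1195 (-0.68 ± 0.10, adjusted p = 0.00437). Tlr2, the partner of Tlr6, read 5779.6 and 5423 at rest and 6059 and 4352 with IFNγ and was not called.

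Several Fc receptor transcripts changed in these cells without the shared chain. Of 10 genes of this list, which includes Fcer1g and the cytosolic receptor Trim21, 4 rose and 1 fell (median 0.17), and 2 rose without rest 1. Of the list 50% was called, against 11.7% of all genes. Fcgr1, the high-affinity IgG receptor, rose from 792 and 847 to 1967 and 2066 (1.30 ± 0.05, adjusted p = 5.27e-06). Fcgr4, an activating receptor, read 2835 and 4006 at rest and 11903 and 14885 with IFNγ (1.98 ± 0.32, adjusted p = 0.00562), and without rest 1 it was not called (adjusted p = 0.0525). Fcgr2b, the inhibitory receptor that needs no γ chain, fell from 5717 and 6223 to 4011 and 4580.0 (-0.48 ± 0.07, adjusted p = 0.00423). The rise of Fcgr3 was small (0.24) and 7 of 16 alternative settings did not call it (highest adjusted p 0.305).

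Of 20 other ITAM adaptors, their partners and Syk pathway genes 3 rose and 1 fell (median -0.02), and 1 rose without rest 1. Of the list 20% was called, against 11.7% of all genes. Clec5a, a lectin that signals through the adaptor DAP12, went from 543 and 598 to 1009.8 and 1295 (1.01). Tyrobp, which encodes DAP12, read 6240.1 and 6501 at rest and 5704 and 4899 with IFNγ (-0.27, adjusted p = 0.105). Clec4d fell from 12366 and 13151 to 9990.2 and 9280.4 (-0.41), a call that the stronger background correction did not make, and 2 fell when IFNγ 1, IFNγ 2 or either WT IFNγ array was left out.

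Cytokine receptors rose in 8 of 24 genes and fell in 2 (median 0.13), with 5 risers without rest 1 0 fallers without rest 2 and 1 without rest 1 or IFNγ 1. Of the list 41.7% was called, against 11.7% of all genes. Il15ra, which presents IL-15 to lymphocytes, rose from 111 and 113 to 360.0 and 337 (1.64 ± 0.05, adjusted p = 1.49e-06). Il13ra1, a chain of the IL-4 and IL-13 receptor, went from 317 and 313 to 863 and 898 (1.48 ± 0.05, adjusted p = 1.49e-06). The ligand-binding IL-10 receptor chain Il10ra rose from 297 and 290.2 to 659.6 and 728 (1.24), while the second chain, Il10rb, fell from 773 and 869.6 to 509 and 615 (-0.55), without a call when rest 2 was left out. Csf2rb2 (1.55) and Csf2rb (0.91), β chains for GM-CSF and IL-3, rose, and the α chain Csf2ra read 2112 and 2391 at rest and 2252 and 2485 with IFNγ, not called.

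Of 27 G protein-coupled receptors 4 rose and 3 fell (median 0.05), 25.9% called against 11.7% of all genes. P2ry14, a receptor for UDP-sugars, rose from 224 and 262 to 902 and 1729 (2.37 ± 0.28, adjusted p = 0.00129) with a wide gap between the IFNγ arrays. Fpr2, a formyl peptide receptor, went from 2289.6 and 2519.6 to 6349.5 and 5044 (1.24). Gpr183, a receptor for oxysterols that guides cell positioning, fell from 679 and 747 to 199 and 227 (-1.75 ± 0.08, adjusted p = 1.35e-05), and Cxcr4 from 306 and 299 to 173 and 171 (-0.82), the latter without a call when rest 1 or rest 2 was left out (adjusted p up to 0.0688). Ch25h, the enzyme that makes the precursor of the Gpr183 ligand, rose from 4611 and 4054 to 11841 and 10362 (1.36 ± 0.08, adjusted p = 3.87e-05). Ccr1 and Ccr2 were under the median on all 4 arrays.

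Among 17 complement genes 3 rose and 2 fell (median 0.02), 29.4% called against 11.7% of all genes. C2 rose from 126 and 132 to 329 and 378 (1.45 ± 0.16, adjusted p = 0.000885) and its alternative pathway counterpart Cfb from 719 and 595 to 1434 and 1771 (1.28). C2 kept its call under every alternative, and Cfb lost it without rest 2 or IFNγ 2 (adjusted p up to 0.0907). The risers numbered 1 without rest 2 or without IFNγ 2, and the fallers 0 without rest 1, rest 2 or IFNγ 1 and 1 without IFNγ 2. Vsig4, a complement receptor of resident macrophages, read 6349.5 and 7869 at rest and 3411 and 4739 with IFNγ (-0.81), and its call was lost without rest 1, rest 2 or IFNγ 1 (adjusted p up to 0.165). C1qa was not called (3968 and 4799.9 at rest and 4006 and 5067 with IFNγ).

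Genes of large peritoneal macrophage identity fell more often than they rose. Of 24 such genes 6 fell and 2 rose (median -0.18), 33.3% called against 11.7% of all genes. Gata6, the factor that specifies these cells, fell from 1153 and 1236 to 306 and 357 (-1.85 ± 0.11, adjusted p = 3.96e-05). Serpinb2, a protease inhibitor, fell from 4078 and 5387 to 1095 and 1332 (-1.96 ± 0.28, adjusted p = 0.00302), and Ltbp1 from 478 and 467 to 254 and 242 (-0.93). Against this, the adhesion receptor Selp rose from 115 and 118 to 369.6 and 464 (1.83 ± 0.11, adjusted p = 4.96e-05) and Timd4, which binds phosphatidylserine on dead cells, from 165 and 183 to 434 and 559 (2.83-fold, adjusted p = 0.00217). With the spread taken from the FcgKO arrays only, 10 fell. Fewer fell without rest 1, rest 2, IFNγ 1 or either WT IFNγ array, and more without either WT resting array. Without IFNγ 1 the risers were more numerous and nearly equalled the fallers.

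Of 21 scavenger and dead-cell uptake receptors 2 rose and 4 fell (median -0.00), 28.6% called against 11.7% of all genes. Cd93 fell from 1088 and 1106 to 434 and 494 (-1.24 ± 0.08, adjusted p = 8.26e-05) and Itgb5, a chain of a receptor used for dead-cell uptake, from 2673 and 2339 to 1392 and 1349.5 (-0.87). Mrc1, the mannose receptor, rose from 294 and 347 to 519 and 659.6 (0.87). It was also the only riser among 15 markers of alternative activation (6.67% called, against 11.7% of all genes). Of these markers Arg1 read 14191 and 14191 at rest and 13222 and 14385 with IFNγ. Retnla read 894 and 1090.3 at rest and 859 and 1119 with IFNγ, and neither was called. Without rest 2 or without IFNγ 1 the scavenger list held 2 fallers, without IFNγ 2 it held 1 riser, and without IFNγ 1 the alternative activation list held 2 risers. The latter list held 1 faller without either WT resting array.

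Matrix, integrin and protease genes were split, 6 rising and 5 falling of 25 (median 0.07), 44% called against 11.7% of all genes. Sdc4, a heparan sulfate proteoglycan, rose from 209 and 176 to 495 and 485 (1.35 ± 0.09, adjusted p = 9.05e-05). Timp2, an inhibitor of metalloproteinases, fell from 2168 and 2448 to 1290.4 and 1545 (-0.71 ± 0.09, adjusted p = 0.00234), and the gelatinase gene Mmp9 from 1018 and 1122 to 793 and 659.9 (-0.56), without a call when rest 2 was left out (adjusted p = 0.0729). The risers numbered 2 without rest 1 and 3 without IFNγ 2, and the fallers 3 without rest 2.

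Nucleotide metabolism rose in 8 of 21 genes and fell in 4 (median 0.04), 57.1% called against 11.7% of all genes. Beside Upp1, the salvage enzymes Pnp (1760.0 and 1719 to 5947 and 7426, 1.93) and Hprt (2796 and 2707 to 4513 and 5271, 0.83) rose. Cmpk2, a mitochondrial nucleotide kinase, went from 125 and 193 to 697 and 837 (2.30 ± 0.19, adjusted p = 0.000222). Nt5c3, a pyrimidine nucleotidase, rose from 396 and 403 to 836 and 858 (1.08 ± 0.04, adjusted p = 2.81e-06). Adk, adenosine kinase, fell from 879.9 and 906 to 573 and 565 (-0.65 ± 0.05, adjusted p = 0.000136). It kept its call under every alternative fitted per gene, but its other probe alone gave -0.28 and was not called (adjusted p = 0.165). The fallers numbered 1 without rest 2 or IFNγ 2 and 2 without rest 1 or IFNγ 1.

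The glycolysis genes that rose belong to glucose uptake and its first phosphorylation steps. Of 21 glycolysis and pentose phosphate genes 4 rose and 4 fell (median 0.04), 38.1% called against 11.7% of all genes. Hexokinase Hk3 rose from 1165 and 1229 to 6873 and 7455 (2.58 ± 0.06, adjusted p = 2.4e-07), Hk2 from 2615 and 2821 to 4492 and 4412 (0.71), the phosphofructokinase Pfkp from 560.4 and 638 to 1532 and 1541 (1.36) and the glucose transporter Slc2a1 by 0.45, the last without a call when rest 2 was left out (adjusted p = 0.0645). Ldha (-0.41) and Gapdh (-0.22) were among the 4 fallers, but 0 fell without IFNγ 1 or IFNγ 2, 1 without rest 2, and 2 without rest 1 or either WT IFNγ array.

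Of 19 genes on the TCA cycle list, which includes the cytosolic Idh1, 0 rose and 5 fell (median -0.15). That is 26.3% called against 11.7% of all genes. Idh1 was the only faller of at least 2-fold. After Idh1 the largest falls were those of Mdh2, mitochondrial malate dehydrogenase, from 1504 and 1629 to 1040.0 and 1034 (-0.59 ± 0.07, adjusted p = 0.00113), and Idh3g, a subunit of the NAD-dependent isocitrate dehydrogenase, from 3046 and 2716 to 2095 and 2127 (-0.45). Without IFNγ 2 there were 8 fallers. Of 51 subunits of oxidative phosphorylation 7 fell and 2 rose (median -0.07), 17.6% called against 11.7% of all genes. With 1 array left out the fallers ranged from 1 without rest 1 to 11 without either WT resting array, and the risers numbered 1 without rest 1, IFNγ 1 or either WT IFNγ array. The stronger background correction called 0 of them in either direction. For Ndufs8 of complex I the values were 1750.2 and 1621 at rest and 1251 and 1352 with IFNγ (-0.37).

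Sterol synthesis held some of the larger metabolic falls. Of 28 cholesterol and fatty acid genes 7 fell and only Ch25h rose (median -0.19), 28.6% called against 11.7% of all genes. Sqle, squalene epoxidase, fell from 724 and 947 to 338 and 281 (-1.42 ± 0.19, adjusted p = 0.00252) and Hmgcs1, the HMG-CoA synthase, from 2716 and 2900.4 to 1475 and 1349 (-0.99 ± 0.12, adjusted p = 0.00155). Fdps read 1459 and 1612 at rest and 757 and 721 with IFNγ (-1.05), and its call was lost when any 1 FcgKO array was left out (highest adjusted p 0.0987). The fallers numbered 4 without rest 1 and 3 without rest 2. Srebf2, the transcription factor of the pathway, was not called (-0.25, adjusted p = 0.151).

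Of 15 eicosanoid enzymes 4 fell and 1 rose (median -0.07), and the riser, Pla2g7 (0.27), was lost without rest 1 or either WT IFNγ array (adjusted p up to 0.262). The leukotriene enzymes Alox5 (346 and 298 to 167 and 195, -0.83) and Ltc4s (211 and 193 to 126 and 124, -0.70) fell together with Ptgis, prostacyclin synthase (3759 and 3968 to 2509 and 2883, -0.52). Ptgs2 was under the median on all 4 arrays. Of the list 33.3% was called, against 11.7% of all genes.

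Lysosomal genes fell in 10 of 36 cases and rose in 2 (median -0.17), 33.3% called against 11.7% of all genes. Gusb, β-glucuronidase, fell from 8973 and 8720.3 to 5291 and 4907 (-0.80 ± 0.05, adjusted p = 7.44e-05) and Atp6v0a1, a proton pump subunit, from 1332 and 1385 to 612 and 735 (-1.02 ± 0.10, adjusted p = 0.000465). Dimmer probes of the same genes changed less, -0.40 and -0.34 for Gusb and -0.16 for Atp6v0a1, and were not called. The cathepsins moved apart: Ctsl fell from 227 and 236 to 121 and 140.2 (-0.83) and Ctsc, which activates granule proteases, rose from 7111 and 7694 to 11592 and 11841 (0.66). Ppt1, a thioesterase, also rose, from 526 and 628 to 1174 and 1249 (1.08). With the stronger background correction the list held 5 fallers. Without rest 1 or rest 2 the list held 6 fallers, and without IFNγ 1 it held 4 risers.

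Stress and redox genes were mixed. Of 20 unfolded protein and amino acid response genes 2 rose and 5 fell (median -0.08), 35% called against 11.7% of all genes. Herpud1, a component of degradation at the endoplasmic reticulum, fell from 1623 and 1730.1 to 874 and 906 (-0.91 ± 0.07, adjusted p = 0.000136), while Psat1 of serine synthesis rose from 526 and 536 to 808 and 1154 (0.86). Without rest 1 or rest 2 the list held 2 fallers and 1 riser, without IFNγ 1 or IFNγ 2 it held 3 fallers and 1 riser, and without either WT IFNγ array 1 riser. Of 20 redox genes 2 rose and 5 fell (median 0.03), also 35% called. Sod2, the mitochondrial superoxide dismutase, rose from 8368 and 7186 to 14191 and 13028 (0.81 ± 0.08, adjusted p = 0.000518), and the glutathione transferase Gsta3 fell from 254 and 261 to 157 and 179 (-0.62 ± 0.06, adjusted p = 0.000654). The 5 fallers were 2 without rest 1 or IFNγ 2 and 3 without rest 2, and the risers 1 without rest 1, IFNγ 1 or either WT IFNγ array.

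Of 15 iron and heme genes 4 fell and 1 rose (median -0.01), with 2 fallers without rest 1, rest 2 or IFNγ 1 and 0 risers without rest 2 or IFNγ 1. Hmox1, heme oxygenase, fell from 4432 and 3609.6 to 2377 and 1844 (-0.93 ± 0.16, adjusted p = 0.00759, and 0.0637 without rest 1) and Blvra, which acts on its product, from 2163 and 2038 to 1289 and 1384 (-0.65). The iron exporter Slc40a1 read 104 and 109.7 at rest and 104 and 118 with IFNγ, not called. Of the list 33.3% was called, against 11.7% of all genes.

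Of 26 immediate early, AP-1 and BATF genes 7 rose and 1 fell (median 0.02), with 3 risers and 0 fallers without rest 1, 2 risers without rest 2 and 2 fallers without IFNγ 1. Of the list 30.8% was called, against 11.7% of all genes. After Batf2 the largest rise was that of Atf3, from 409 and 325 to 647 and 577 (0.75). Of 16 MAP kinase phosphatases and related genes 3 rose and 4 fell (median -0.10), 43.8% called. Dusp6, a phosphatase of ERK, fell from 4624 and 4395 to 2357 and 2501 (-0.89 ± 0.07, adjusted p = 0.000169), and Dusp1, a phosphatase of p38 and JNK, from 680.1 and 551 to 367 and 249.6 (-1.02), the latter without a call when rest 1 was left out (adjusted p = 0.0547). The 4 fallers were 2 without rest 1, rest 2 or IFNγ 2, and the 3 risers were 1 without rest 2 or IFNγ 2.

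Of 29 lineage factors 2 rose and 3 fell (median -0.02), 17.2% called against 11.7% of all genes. Spi1, which encodes PU.1, rose from 373 and 368 to 490.0 and 477 (0.38), and Zeb2 fell from 728 and 726 to 445 and 436 (-0.72), without a call when rest 1 or rest 2 was left out (adjusted p up to 0.0549). Cebpb read 10530.1 and 9695 at rest and 8947 and 9126 with IFNγ, not called. With the spread taken from the FcgKO arrays only, 5 fell.

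Of 31 cell cycle genes 2 rose and 3 fell (median -0.06), 16.1% called against 11.7% of all genes. The falls were not called when any 1 FcgKO array was left out, and fewer genes rose without rest 1 or rest 2. Ccnd2, a D-type cyclin, rose from 107 and 125 to 177 and 218 (0.77), and Top2a, a marker of dividing cells, read 122 and 114 at rest and 125 and 116 with IFNγ. Of 46 cytosolic ribosomal protein genes 5 fell and 0 rose (median -0.14), 10.9% called and near the 11.7% of all genes, with 2 fallers without rest 1 or IFNγ 2 and 9 without IFNγ 1. Rps26 went from 9498 and 9216 to 7503 and 6858 (-0.38). The stronger background correction called 0 of the ribosomal genes.

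The response of FcgKO macrophages was then set beside that of WT macrophages, in which 872 genes rose (5.26%) and 1266 fell (7.63%). Of the 800 risers in FcgKO 613 also rose in WT, 186 were not called there and 1 fell. Of the 1147 fallers 771 also fell in WT, 376 were not called and 0 rose. Among the at least 2-fold changes, 4 of 189 risers and 2 of 42 fallers were not called in WT. The median change of the 189 risers was 1.49 in FcgKO and 1.46 in WT, and that of the 42 fallers -1.25 and -1.27. A gene called in 1 genotype and not in the other is not thereby shown to differ, and the difference of the responses was tested directly.

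That test called 0 of 16593 genes (smallest adjusted p 0.0529), while 1200 (7.23%) had an unadjusted p below 0.05. Other settings called between 0 and 22 genes, 22 of them without IFNγ 1 and 12 with the prior spread of limma following intensity. Some of the genes with the smallest p are given as values. Ifi202b, a DNA-binding protein of the PYHIN family, read 249.5 and 359.9 at rest and 1076 and 1287 with IFNγ in FcgKO (1.97) but 95.5 and 93.2 at rest and 94.6 and 95.3 with IFNγ in WT, under the median on all WT arrays, so that no WT response was measured and no size is given for the difference (adjusted p = 0.0627, below 0.05 in 7 of 16 alternatives). Its relative Ifi205 was under the median on all 4 FcgKO arrays and rose in WT from 120.2 and 130.4 to 314 and 415, and again no size is given (adjusted p = 0.0556, below 0.05 in 7 alternatives). Both genes lie on chromosome 1, as Fcer1g does, and whether that position has any part in their values was not tested.

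Fcgr1 rose by 1.30 in FcgKO and by 0.57 in WT, where it read 648 and 646 at rest and 986 and 932 with IFNγ (difference 0.73 ± 0.07, adjusted p = 0.0556). Tlr13 fell by 0.68 in FcgKO and by 1.71 in WT, from 2186 and 1753 to 576 and 624 (difference 1.02 ± 0.15, adjusted p = 0.132). Gbp5 was under the median on all resting arrays of both genotypes and read 619.8 and 686 with IFNγ in FcgKO and 1112 and 1142 in WT, where the difference had an adjusted p of 0.0627. The call for Lrrc75a in FcgKO was lost without rest 1, rest 2 or IFNγ 1. It went from 239 and 228 to 327 and 300.4 in FcgKO and from 219 and 258 to 818 and 926 in WT (difference -1.45 ± 0.13, adjusted p = 0.0529, below 0.05 in 7 alternatives). Tarm1, a receptor of myeloid cells, read 239 and 220.4 with IFNγ in FcgKO and 467 and 447 in WT, with the FcgKO resting arrays under the median (adjusted p of the difference 0.0566). None of these differences passed the adjusted threshold in the fit reported here.

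The monocyte chemokines had different medians in the genotypes, with 0 genes called for the difference. Their median change was 1.32 in FcgKO and 0.48 in WT, where 2 of 4 rose. Ccl2 changed by 1.33 in FcgKO and by 0.44 in WT (difference 0.89 ± 0.22, adjusted p = 0.359). For Ccl7 the changes were 1.23 and 0.25 (difference 0.97 ± 0.20, adjusted p = 0.268). WT cells began from 854 and 861 for Ccl7 and FcgKO cells from 2149 and 1925. Antiviral genes likewise had a median of 0.95 in FcgKO and 0.62 in WT, with Ifit3 at 3.09 and 1.72 and a difference whose adjusted p was 0.491.

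**Figure D5:**
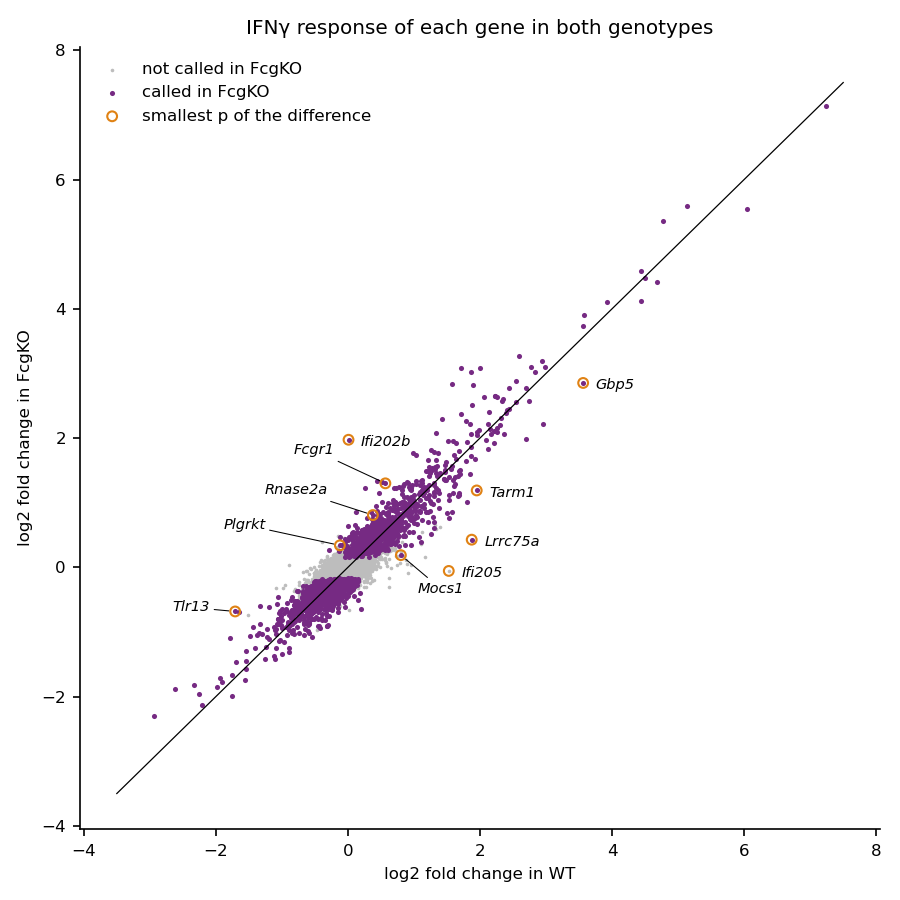
Log2 fold change with IFNγ in FcgKO (y axis) against that in WT (x axis) for 16593 genes, purple where called in FcgKO, with the line of equal response and orange circles around 10 genes, the 5 with the smallest p of the difference in each direction. Most called genes lie along the line, and the circled genes farthest from it are Ifi202b above and Ifi205 and Lrrc75a below. For Ifi202b, Ifi205, Gbp5 and Tarm1 at least 1 group lies under the array median, so their positions are not measured sizes.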

How the data were processed

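The authors deposited 1 value per probe and array as a linear intensity. Per the submitters' processing notes, the software was GenomeStudio. Ranked from lowest to highest, the deposited intensities of the 8 arrays are nearly identical (largest log2 gap 0.00585), as after normalisation between arrays. The method is not given in the sources used here. A second table, with 16 columns of signals and detection p-values, names its arrays only by running numbers and was not used.

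Values were taken as log2 of the deposited intensity. Probe symbols came from the platform annotation, and 23962 named probes matched the RefSeq GRCm38.p6 gene table with 0 symbols changed. Each gene was represented by its brightest probe, averaged across the 8 arrays (4777 genes had more than 1 probe). limma 3.58.1 in R 4.3.3 fitted 1 mean per group on all 8 arrays, with Benjamini-Hochberg adjustment over 16593 genes. The number of arrays limits the precision (4 residual degrees of freedom, 3.683 added by the prior). The script was tested on simulated data. Named genes were the 15 largest rises and falls, up to 8 called members with the largest changes and the first 3 members of each list (any member of a list of 8 or fewer), the 5 genes with the smallest p in each direction for the difference, and genes in runs of adjacent called genes. The comparison, the 44 function lists, the 9 marker lists and the promoter motifs were chosen with earlier results of these data known. Some genes are in more than 1 list.

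Alternatives were the background correction, the choice of probe, a filter on dim genes, the arrays in the fit, an intensity trend, the replicate block and each array left out.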

Additional observations from a re-analysis of the deposited data

Results flagged for a closer look

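Among the named genes, 4 that were called in at least 1 genotype had both IFNγ arrays on opposite sides of the resting arrays in the 2 genotypes. Over all 16593 genes 715 (4.31%) lay on opposite sides, 48 of them (0.29% of all) with a call in either genotype. Ifi205 was 96.2 and 95.5 at rest and 94.0 and 90.4 with IFNγ in FcgKO, and 120.2 and 130.4 at rest and 314 and 415 with IFNγ in WT, so that the response in FcgKO minus that in WT was -1.58 (adjusted p of the difference 0.0556). All 4 FcgKO values lie under the array median, so their order has no weight and the difference is no measured size. Xdh, xanthine dehydrogenase, went from 1316 and 1458 to 1695 and 1629 in FcgKO and from 1311 and 1359.5 to 1065 and 1136 in WT (difference 0.54, adjusted p = 0.17). Plgrkt, a plasminogen receptor, went from 1354 and 1295 to 1661 and 1691 in FcgKO and from 1486 and 1562 to 1406 and 1393 in WT (difference 0.46, adjusted p = 0.132). Adora3, an adenosine receptor, went from 171 and 181 to 223 and 241 in FcgKO and from 166 and 158 to 157 and 157 in WT (difference 0.44, adjusted p = 0.226). None of these 4 differences passed the adjusted threshold.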

How the results depend on the processing

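Over all named genes and settings, 5815 values stayed on their side of the threshold (uncalled values may have changed sign), 375 lost a call, 41 gained one and 1 reversed. The reversed value was that of Il1b, not called in the main setting (0.22), which read -0.59 without FcgKO IFNγ replicate 1 (adjusted p 0.0203) and 1.02 without replicate 2. Of 272 named genes that were called, 177 kept the call under every setting and 0 changed sign. Against 1947 called genes (800 risers, 1147 fallers), leaving out 1 array gave 1130 to 2161 in all, 539 to 839 risers and 591 to 1322 fallers. The at least 2-fold counts of 189 and 42 became 176 to 207 and 40 to 49. Normexp with offset 16 gave 690 fallers, 290 risers of at least 2-fold and 98 fallers of at least 2-fold. The labels do not say that replicate numbers pair samples, and deviations of same-numbered arrays correlated from -0.0221 to 0.282 between groups. With the number as a replicate block 2099 genes were called, 4 in place of 2 Toll-like receptor genes fell, and so did 2 B cell markers and 1 macrophage marker, against 0 without it. For the difference of responses, 0 genes in the main setting became 3 with normexp at offset 50 or 16, with the filter on dim genes and with every probe as a feature, 12 with an intensity trend, 7 with the replicate block and 0 to 22 with 1 array left out. The cause of these shifts was not tested. Intensities near the array median limit what can be read: 6487 genes were not above it on any FcgKO array. Of 145 further probes of named called genes 131 had the same sign, 82 were called in the same direction and 0 in the opposite one.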
